A study of Arabidopsis thaliana with 12 samples.

Results

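Severe and mild cold were compared directly, as plantlets of Arabidopsis thaliana held at 0 °C against plantlets held at 10 °C. The comparison took 6 of the 12 libraries of the series, the 3 labelled 0 °C and the 3 labelled 10 °C. The plants were of ecotype Columbia-0, the standard laboratory strain of this small flowering plant, and carried no transgene or mutation in the labels. They were raised on agar plates with sucrose at 22 °C, with 16 h of light and 8 h of darkness. Cold began at 14 days of age, at 0, 4 or 10 °C, and control plants stayed at 22 °C. Each library was made from total RNA of whole plants, pooled from 10 plantlets of 1 plate. The labels of all samples give 24 h in the cold, whereas the text for the series also names 48 and 72 h. If 0 °C lasted 24 h and 10 °C 72 h, temperature and duration cannot be told apart. The sources used here do not say whether each temperature had its own chamber run, and the p-values measure only the spread between these samples.

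Plants of temperate regions raise their freezing tolerance when they are kept at low, non-freezing temperatures, a response called cold acclimation. In Arabidopsis, a fall in temperature induces the CBF/DREB1 transcription factors within hours. They bind a promoter element called CRT/DRE and raise the transcription of COR (cold-regulated) and LEA (late embryogenesis abundant) genes, whose products protect membranes and proteins during freezing and water loss. Abscisic acid acts on many of the same genes through another element, the ABRE, and the circadian clock gates the response through elements such as the evening element.

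The promoters of 4 genes with large differences between 0 and 10 °C are shown first as examples, chosen after their values and letters were seen, of windows with and without these elements. They do not stand for their groups: in their own windows COR47, which was also higher at 0 °C, held neither CRT/DRE nor ABRE core, and ARR6 and ARR7, lower like ARR8, each held a CRT/DRE core. Each sequence is the 250 bases before the gene start annotated by RefSeq on the genome build TAIR10.1, printed 5′ to 3′ on the gene's strand. Capitals mark every match, on either strand, to the CRT/DRE core (CCGAC), the ABRE core (ACGTG) or the evening element (AAAATATCT). A match describes the letters only and is not a known binding site. RD29A (AT5G52310, chr5:21240467-21240716, plus strand) is a cold- and drought-regulated gene used widely as a CBF target. LEA4-5 (AT5G06760, chr5:2090431-2090680, minus strand) encodes a late embryogenesis abundant protein. GOLS3 (AT1G09350, chr1:3019389-3019638, plus strand) encodes galactinol synthase, which makes the substrate of raffinose synthesis. ARR8 (AT2G41310, chr2:17221590-17221839, plus strand) encodes a cytokinin response regulator and is shown because it was lower at 0 °C.
RD29A: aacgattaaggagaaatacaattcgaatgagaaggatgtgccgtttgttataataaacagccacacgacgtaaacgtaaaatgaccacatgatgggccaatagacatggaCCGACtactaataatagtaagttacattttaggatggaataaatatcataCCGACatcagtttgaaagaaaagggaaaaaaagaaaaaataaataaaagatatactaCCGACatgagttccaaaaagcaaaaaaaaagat
LEA4-5: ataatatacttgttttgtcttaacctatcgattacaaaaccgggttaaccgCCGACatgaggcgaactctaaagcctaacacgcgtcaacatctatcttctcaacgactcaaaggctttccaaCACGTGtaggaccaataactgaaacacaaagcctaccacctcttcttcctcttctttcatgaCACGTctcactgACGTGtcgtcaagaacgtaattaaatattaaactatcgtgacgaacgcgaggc
GOLS3: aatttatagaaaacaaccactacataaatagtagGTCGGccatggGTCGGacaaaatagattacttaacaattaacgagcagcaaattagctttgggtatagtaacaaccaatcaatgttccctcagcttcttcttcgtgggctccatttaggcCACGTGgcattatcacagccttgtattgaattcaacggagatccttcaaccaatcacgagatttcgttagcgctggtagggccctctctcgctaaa
ARR8: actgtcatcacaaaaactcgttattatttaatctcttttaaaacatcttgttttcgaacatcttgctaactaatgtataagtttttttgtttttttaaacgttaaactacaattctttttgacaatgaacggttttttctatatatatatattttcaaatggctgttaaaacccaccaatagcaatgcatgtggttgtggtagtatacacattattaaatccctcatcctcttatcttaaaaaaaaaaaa

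The RD29A window held 3 CRT/DRE cores, whose first bases lie 140, 90 and 33 bases before the gene start. LEA4-5 held 1 CRT/DRE core and 4 ABRE cores, of which 1 pair overlaps on the opposite strands. GOLS3 held 2 CRT/DRE cores and 2 overlapping ABRE cores. ARR8 held none of these letters in this window, and the evening element was in none of the 4 windows.

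The libraries at 0 and 10 °C held between 32870040 and 37709571 estimated counts. Levels are given as CPM, counts per 1000000 on annotated genes after scaling by TMM factors, which correct for differences in RNA composition. The composition did differ. The 10 most abundant genes held 9.30% to 9.63% of the annotated counts at 0 °C and 5.96% to 6.09% at 10 °C, and 17481 to 17586 genes reached 1 CPM at 0 °C against 18893 to 18917 at 10 °C. The TMM factors had means of 0.804 at 0 °C and 1.19 at 10 °C, so the choice of scaling moves directions. Upper quartile factors moved the median over all genes by -0.21 on the log2 scale, and the use of total counts alone moved it by -0.57. Gene groups are therefore given with the number of members that kept their call under all 4 scalings (TMM, RLE, upper quartile and total counts).

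Of 21293 annotated genes tested, 15023 (70.6%) differed between 0 and 10 °C at an adjusted p under 0.05 (edgeR quasi-likelihood test). At 0 °C, 7225 (33.9%) were higher and 7798 (36.6%) were lower, so 48.1% of the calls were higher. That share fell to 35.2% under upper quartile scaling and to 19.9% with total counts alone, when 3430 genes were higher and 13805 lower. A difference of at least 2-fold was seen for 5905 genes (27.7%), of which 2774 (13%) were higher at 0 °C and 3131 (14.7%) lower. At least 8-fold differences were seen for 491 genes higher (2.31%) and 332 genes lower (1.56%) at 0 °C. The 3 libraries of each temperature did not overlap for 15918 genes (74.8%). In all that follows, log2 fold changes are 0 °C over 10 °C and are followed by their standard error (±). Counts of a list are to be read against the shares of 33.9% higher and 36.6% lower among all genes. Counts kept under every scaling have another background, 3430 of the 21293 genes higher and 7555 lower. Requiring every scaling thus removes many more higher than lower calls among all genes. A loss of higher calls in a list is therefore not by itself a property of that list.

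**Figure D1:**
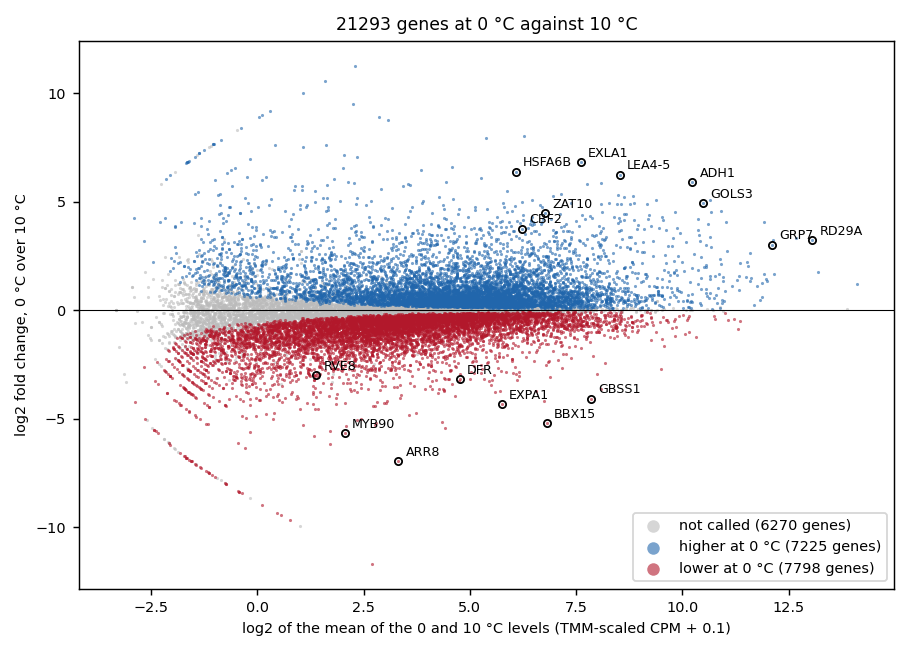
Each point is 1 of the 21293 genes tested, with the log2 of its mean level (TMM-scaled CPM, plus 0.1) on the horizontal axis and its log2 fold change, 0 °C over 10 °C, on the vertical axis. Blue points (7225) were higher and red points (7798) lower at 0 °C, grey points were not called, and named genes such as RD29A and ADH1 lie far above 0 at high levels while GBSS1, EXPA1 and BBX15 lie far below.

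The CBF/DREB1 factors were all higher at 0 °C, as far as they could be tested. CBF2 (AT4G25470) was at 139, 144 and 137 CPM at 0 °C and 10.3, 10.4 and 10.5 CPM at 10 °C, a log2 fold change of 3.76 ± 0.069 (adjusted p = 1.32e-13). The groups were far apart, and the mean was 54.4 CPM at 4 °C and 1.51 CPM at 22 °C. CBF1 (AT4G25490) was at 13.97, 14.2 and 13.1 CPM at 0 °C and 3.94, 4.73 and 4.6995 CPM at 10 °C. CBF3 (AT4G25480) differed least, with 87.9, 97.8 and 95.7 CPM at 0 °C and 42.5, 42.2 and 43.5 CPM at 10 °C (log2 fold change 1.13 ± 0.074). CBF4 (AT5G51990), which is known mainly for its response to drought, was at 3.41, 3.79 and 2.87 CPM at 0 °C and 0.124, 0.0793 and 0 CPM at 10 °C, so at 10 °C it was at or near the detection limit. The related DDF1 and DDF2 had too few counts to be tested. The other 4 kept their direction under all 4 scalings, and the list's median log2 fold change was 2.69, against -0.056 for all genes tested.

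Other transcription factors that respond early to cold in Arabidopsis were higher at 0 °C for 13 of 14 members, in all 4 scalings (median log2 fold change 3.23). ZAT6, a zinc finger factor, was at 673, 737 and 694 CPM at 0 °C and 19.6, 15.9 and 17.1 CPM at 10 °C. ZAT10, a related zinc finger repressor, was at 200.3, 215 and 206 CPM at 0 °C and 9.72, 9.35 and 8.87 CPM at 10 °C. For DEAR1, a repressor of the DREB family, the values were 125, 137 and 131 CPM at 0 °C and 7.12, 8.51 and 7.08 CPM at 10 °C. For all 3, every library at 0 °C was far above every library at 10 °C. COR27, a cold-regulated repressor that acts in the clock, was at 785, 786 and 744 CPM at 0 °C and 20.03, 21.8 and 20.5 CPM at 10 °C (log2 fold change 5.21 ± 0.055, adjusted p = 1.68e-15). ERF5, ERF6, ZAT12, RVE2, HSFC1, COR28 and CZF1 had log2 fold changes between 2.50 and 4.04. AZF3 was not called (0.28 ± 0.33, adjusted p = 0.464).

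The known regulators upstream of the CBF genes moved less and in both directions. Of 12, 5 were higher and 4 lower at 0 °C, of which 4 and 4 kept their call under all 4 scalings. MYB15, a repressor of CBF transcription, was at 4.22, 4.07 and 4.24 CPM at 0 °C and 0.248, 0.317 and 0.553 CPM at 10 °C. CAMTA3, a calmodulin-binding activator of CBF2, was at 86.2, 77.7 and 82.6 CPM at 0 °C and 36.2, 35.7 and 35.5 CPM at 10 °C, and PIF3, a light-signalling repressor of CBF genes, was at 17.5, 15.6 and 16.96 CPM at 0 °C and 6.94, 6.74 and 6.88 CPM at 10 °C. ICE1, which activates CBF3, had a log2 fold change of 0.10 ± 0.04 and was not called without replicate 2 at 0 °C (adjusted p = 0.136) or without replicate 3 at 0 °C, while OST1, the kinase that acts on it, was not called (-0.063 ± 0.10). PIF4 (-0.56 ± 0.085) and HOS1 (-0.30 ± 0.073), a ubiquitin ligase that targets ICE1, were lower.

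All 18 COR and LEA genes of the list were higher at 0 °C, in all 4 scalings, with a median log2 fold change of 2.99. RD29A was at 15038, 15287 and 15645 CPM at 0 °C and 1641, 1643 and 1623 CPM at 10 °C (log2 fold change 3.23 ± 0.037). Its mean was 14075 CPM at 4 °C and 94.2 CPM at 22 °C. COR15A (AT2G42540), which encodes a chloroplast protein that protects membranes, was at 5175, 5537 and 5212 CPM at 0 °C and 878, 875 and 819.7 CPM at 10 °C. It reached its highest mean, 7061 CPM at 4 °C and 58.7 CPM at 22 °C, not at 0 °C but at 4 °C. The largest difference belonged to LEA4-5, at 699, 783 and 709 CPM at 0 °C and 9.74, 9.48 and 9.76 CPM at 10 °C, a log2 fold change of 6.24 ± 0.07 (adjusted p = 2.42e-15). COR47 (AT1G20440), a dehydrin, was at 478, 408 and 389 CPM at 0 °C and 6.27, 8.67 and 7.96 CPM at 10 °C. ERD7 was at 3098, 3186 and 3077 CPM at 0 °C and 93.7, 91.4 and 93.6 CPM at 10 °C, and LEA14 at 3585, 3898 and 3533 CPM at 0 °C and 153, 154 and 150.3 CPM at 10 °C. The smallest differences in this list were those of RAB18 (1.06 ± 0.07), RCI2B (1.93 ± 0.064) and COR15B (1.98 ± 0.055). The dehydrins ERD10 and LTI30 and the abscisic-acid-responsive RD29B lay between 4.04 and 4.43.

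**Figure D2:**
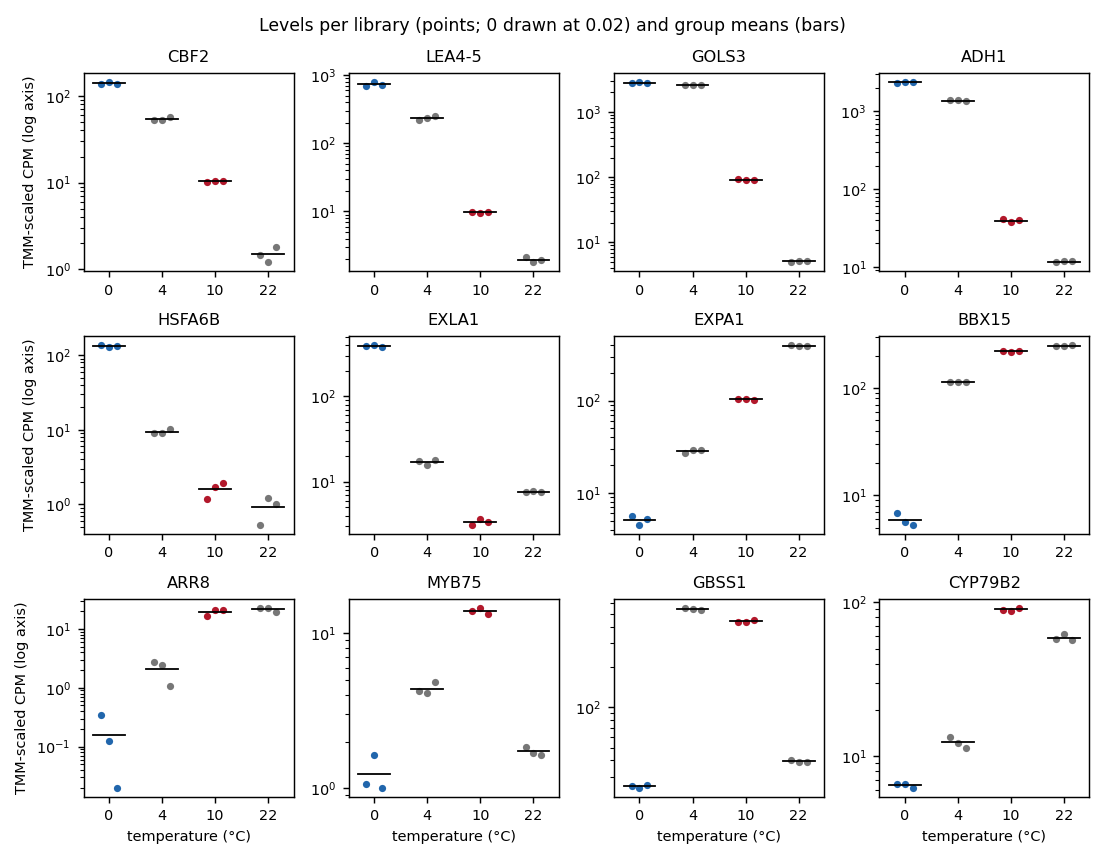
Each panel shows 1 gene, with temperature (0, 4, 10 and 22 °C) on the horizontal axis and TMM-scaled CPM on a log vertical axis; points are the 3 libraries of a temperature (a library at 0 CPM is drawn at 0.02) and bars are group means. CBF2, LEA4-5, GOLS3, ADH1, HSFA6B and EXLA1 are higher at 0 than at 10 °C in every library, and EXPA1, BBX15, ARR8, MYB75, GBSS1 and CYP79B2 are lower.

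Of 19 genes of raffinose, starch and sucrose metabolism, 13 were higher and 4 lower at 0 °C, and 9 and 4 were so under all 4 scalings. The 4 lower genes were GBSS1 and APL3 of starch synthesis, SPS4F and SUS4. GOLS3 was at 2767, 2871 and 2748 CPM at 0 °C and 93.7, 89.2 and 91.6 CPM at 10 °C (log2 fold change 4.93 ± 0.03). RS5, a raffinose synthase, was at 1471, 1401 and 1499 CPM at 0 °C and 111, 110.1 and 119 CPM at 10 °C, whereas RS4, a stachyose synthase, was not called (-0.48 ± 0.28, adjusted p = 0.151). GOLS1 (1.81 ± 0.04) and GOLS2 (3.27 ± 0.076) were higher too. BAM3, the β-amylase that degrades starch to maltose in leaves, was at 11838, 11843 and 11918 CPM at 0 °C and 1203, 1187 and 1219.8 CPM at 10 °C. Its log2 fold change was 3.302 ± 0.024, and those of SEX1 and AMY3, which also act in starch breakdown, were 1.58 ± 0.079 and 1.08 ± 0.069. GBSS1 (AT1G32900), the granule-bound starch synthase, was at 25.7, 25.1 and 26.3 CPM at 0 °C and 431, 437 and 446 CPM at 10 °C, a log2 fold change of -4.09 ± 0.034. It was also low at 22 °C, and the means were 543 CPM at 4 °C and 39.5 CPM at 22 °C. APL3, a subunit of ADP-glucose pyrophosphorylase in starch synthesis, was at 10.3, 8.31 and 7.995 CPM at 0 °C and 82.2, 83.4 and 80.9 CPM at 10 °C. SUS1, a sucrose synthase, was at 894, 583 and 775 CPM at 0 °C and 31.9, 26.05 and 47.6 CPM at 10 °C; SPS4F, a sucrose-phosphate synthase, was lower (-1.48 ± 0.08).

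In proline metabolism 4 of 8 genes were higher and 4 lower at 0 °C (3 and 4 in all 4 scalings). P5CS2, one of the enzymes that start proline synthesis, was at 1551, 1487 and 1559 CPM at 0 °C and 197, 189.6 and 203 CPM at 10 °C. Its mean was higher still at 4 °C, with 2041 CPM at 4 °C and 173 CPM at 22 °C. P5CS1, its stress-induced relative, differed less, at 307, 295 and 303 CPM at 0 °C and 145, 141 and 141 CPM at 10 °C. ProDH2, a proline dehydrogenase, was at 28.7, 29.7 and 31.1 CPM at 0 °C and 14.9, 14.03 and 14.5 CPM at 10 °C, while the transporter PROT1 (-0.74 ± 0.069) and P5CDH (-0.59 ± 0.046) were lower.

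Heat shock genes were higher at 0 °C than at 10 °C. The products of these genes keep proteins folded, and they are known best from heat. Of 11 small heat shock proteins tested, 9 were higher and none lower (8 higher in all 4 scalings; median log2 fold change 3.09). HSP17.6A was at 52.5, 55.1 and 47.5 CPM at 0 °C and 1.71, 2.09 and 2.32 CPM at 10 °C. HSP22 was at 1.11, 1.85 and 1.78 CPM at 0 °C and 0, 0 and 0.0276 CPM at 10 °C, so its 10 °C level was at the detection limit. HSP17.6C was at 5.88, 6.17 and 5.61 CPM at 0 °C and 0.124, 0.211 and 0.138 CPM at 10 °C. All 3 were low at 10 °C. HSP70-3, a cytosolic HSP70, was at 8108, 8211 and 7930.2 CPM at 0 °C and 849.9, 848 and 884 CPM at 10 °C (log2 fold change 3.23 ± 0.034). HSP70-4 was at 1294, 1289 and 1305 CPM at 0 °C and 40.1, 36.5 and 38.5 CPM at 10 °C (log2 fold change 5.08 ± 0.05, adjusted p = 1.28e-15). HSP101, a disaggregase, was at 137, 136 and 137 CPM at 0 °C and 8.36, 8.903 and 8.35 CPM at 10 °C, and HSP90-1 was at 79.5, 81.8 and 79.6 CPM at 0 °C and 6.62, 7.64 and 7.08 CPM at 10 °C. Of the 14 HSP70, HSP90 and HSP101-type genes, 10 were higher and 3 lower, 9 and 2 of them in all 4 scalings. The lower ones were chloroplast members, namely CLPB3 (-0.78 ± 0.072), CPHSC70-1 (-0.72 ± 0.038) and CPHSC70-2 (-0.096 ± 0.035). CPHSC70-2 was called in only 2 of 6 fits that left out a library (adjusted p up to 0.138, without replicate 3 at 10 °C).

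The heat shock factors, of which class A members activate these genes and class B members are known mainly as repressors, were higher for 11 of 17 members and lower for 1, and for 10 and 1 in all 4 scalings. HSFA6B was at 137, 129.6 and 134 CPM at 0 °C and 1.17, 1.69 and 1.96 CPM at 10 °C, a log2 fold change of 6.38 ± 0.15 (adjusted p = 1.74e-12). Its mean was 9.43 CPM at 4 °C and 0.916 CPM at 22 °C. HSFA2 was at 23.55, 21.97 and 23.2 CPM at 0 °C and 0.967, 1.35 and 0.581 CPM at 10 °C, with means of 1.498 CPM at 4 °C and 0.414 CPM at 22 °C. HSFA3 was at 9.28, 7.86 and 9.53 CPM at 0 °C and 0.992, 0.6605 and 0.498 CPM at 10 °C, and HSFB2A was at 66.1, 70.3 and 74.8 CPM at 0 °C and 4.86, 5.31 and 5.14 CPM at 10 °C. Of the HSFA1 factors, which are known to start the heat response, HSFA1D was lower (-1.60 ± 0.39), HSFA1E higher (1.29 ± 0.17), and HSFA1A (0.13 ± 0.13) and HSFA1B (-0.14 ± 0.069) were not called. The protein-folding genes of the endoplasmic reticulum did not follow: 2 of 12 were higher and 8 lower, 1 and 8 in all 4 scalings. CNX1, a calnexin, was at 199, 209 and 206 CPM at 0 °C and 285, 278 and 289 CPM at 10 °C, and CRT2, a calreticulin, at 135, 143 and 139 CPM at 0 °C and 208, 207 and 208 CPM at 10 °C. BZIP60, a transcription factor of the unfolded protein response, was higher, at 83.2, 90.02 and 88.03 CPM at 0 °C and 39.8, 37.1 and 39.1 CPM at 10 °C.

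Fermentation genes were much higher at 0 °C. ADH1 (AT1G77120), alcohol dehydrogenase, was at 2346, 2379 and 2373 CPM at 0 °C and 40.8, 37.8 and 39.6 CPM at 10 °C, a log2 fold change of 5.91 ± 0.033 (adjusted p = 3.54e-17). The 4 °C level lay between, with means of 1384 CPM at 4 °C and 11.7 CPM at 22 °C. PDC1, a pyruvate decarboxylase, was at 1100.5, 1082 and 1125 CPM at 0 °C and 37.2, 36.9 and 38.6 CPM at 10 °C, and PDC2 at 457, 462 and 470.1 CPM at 0 °C and 81.3, 82.4 and 80.5 CPM at 10 °C. The low-oxygen list, which includes ADH1, PDC1 and PDC2, was not higher as a group. Of its 13 genes, 5 were higher and 6 lower in all 4 scalings (median 0.037). PCO1, an oxygen-sensing cysteine oxidase, was at 0.255, 0.288 and 0.404 CPM at 0 °C and 2.13, 2.22 and 2.24 CPM at 10 °C, and PCO2 (-1.12 ± 0.33), the haemoglobin HB1 (-1.10 ± 0.13) and SUS4 (-0.46 ± 0.15) were lower too, although SUS4 was not called without replicate 2 at 0 °C (adjusted p = 0.0751) or without replicate 2 at 10 °C. In alternative respiration, 3 of 7 genes were higher and 3 lower, 2 and 3 in all 4 scalings. The external NADH dehydrogenase NDB2 was at 127, 128 and 130.1 CPM at 0 °C and 44.7, 51.5 and 48.4 CPM at 10 °C, the internal enzyme NDA1 at 79.5, 77.1 and 77.9 CPM at 0 °C and 184, 179 and 186 CPM at 10 °C, and the alternative oxidase AOX1A had a log2 fold change of 0.61 ± 0.21, which was not called without replicate 2 at 0 °C (adjusted p = 0.144) or without replicate 3 at 10 °C. Among 15 antioxidant genes 6 were higher and 6 lower (4 and 5 in all 4 scalings). The catalases differed, since CAT1 (158, 151 and 159 CPM at 0 °C and 38.97, 35.7 and 37.7 CPM at 10 °C) and CAT3 (1395, 1387 and 1440.0 CPM at 0 °C and 459, 473 and 453 CPM at 10 °C) were higher and CAT2 was lower (-0.41 ± 0.027).

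**Figure D3:**
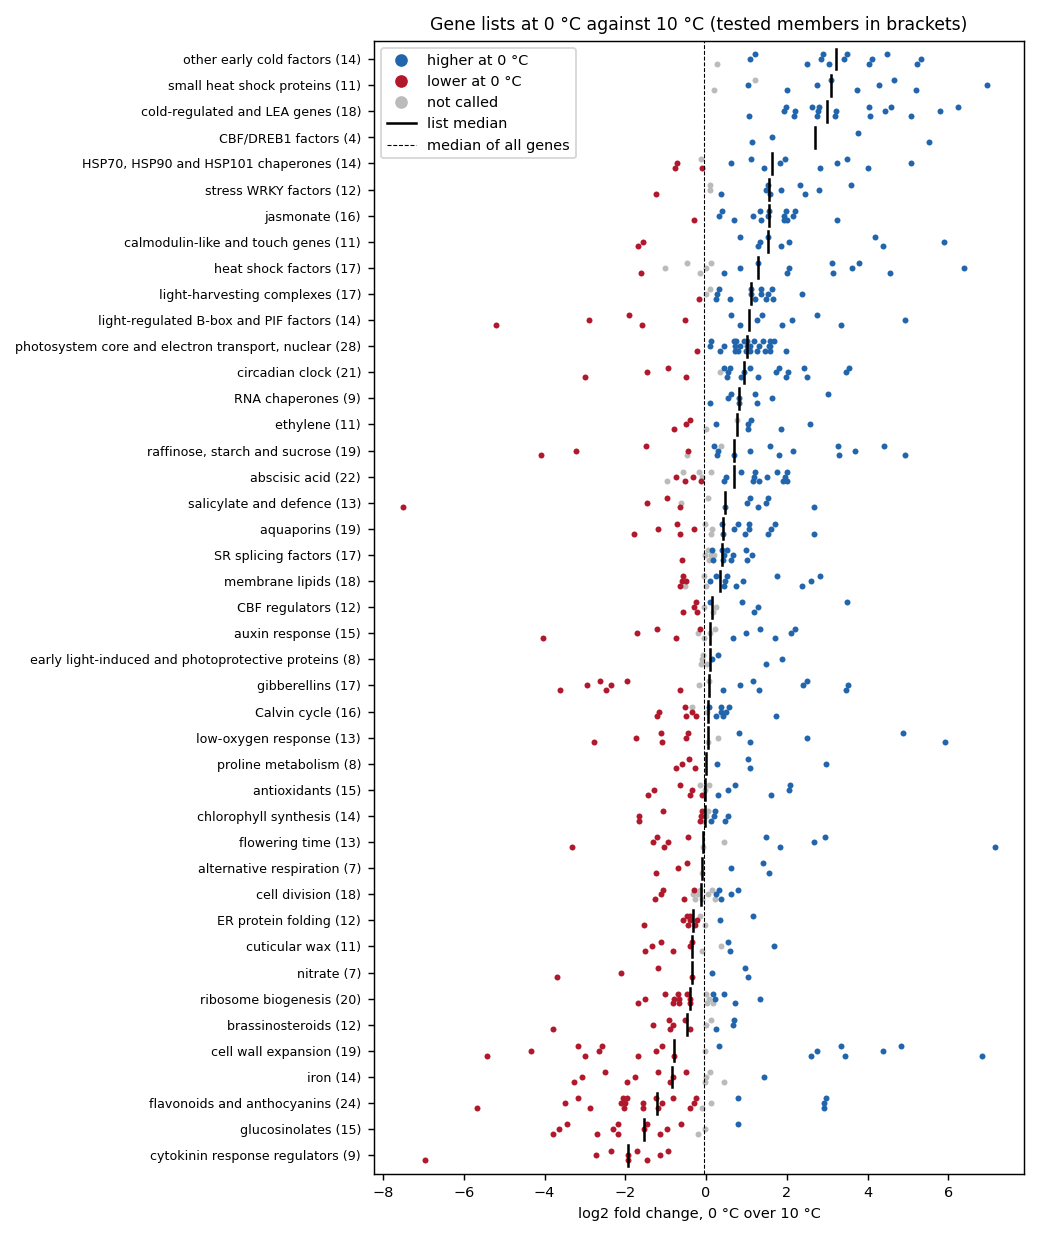
Each point is a tested member of 1 of 43 gene lists, placed by its log2 fold change, 0 °C over 10 °C, with blue for higher at 0 °C, red for lower and grey for not called; black bars are list medians and the dashed line is the median of all genes tested, -0.056. The other early cold factors and small heat shock proteins have the highest medians, 3.23 and 3.09, and the cytokinin response regulators and glucosinolate genes the lowest, -1.93 and -1.55.

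Genes of the stress hormones abscisic acid and jasmonate were mostly higher at 0 °C. Abscisic acid, the hormone of water deficit, had 13 of 22 genes higher and 4 lower at 0 °C, 11 and 3 of them in all 4 scalings. The phosphatases that repress its signalling were among the higher ones, with ABI2 at 124, 122 and 115 CPM at 0 °C and 31.5, 30.9 and 30.5 CPM at 10 °C, AHG3 at 309.6, 312 and 306 CPM at 0 °C and 82.98, 80.6 and 83.02 CPM at 10 °C and HAI1 at 14.6, 13.6 and 12.4 CPM at 0 °C and 3.62, 3.51 and 2.96 CPM at 10 °C. The transcription factor ABI5 was at 9.41, 8.72 and 7.995 CPM at 0 °C and 2.01, 2.75 and 1.797 CPM at 10 °C. NCED3, the enzyme that limits abscisic acid synthesis under stress, had a log2 fold change of 1.17 ± 0.057, while ABA2 (-0.75 ± 0.11) was lower. In the jasmonate list, 15 of 16 genes were higher and 1 was lower (12 and 0 in all 4 scalings; median 1.55). JAZ1, a repressor of the pathway that is itself induced by jasmonate, was at 273, 262 and 274 CPM at 0 °C and 30.2, 27.2 and 28.1 CPM at 10 °C. AOC2, an allene oxide cyclase of jasmonate synthesis, was at 204, 204 and 201 CPM at 0 °C and 43.1, 44.8 and 43.5 CPM at 10 °C. The lipoxygenase LOX2 was at 230.3, 223 and 234 CPM at 0 °C and 62.2, 56.3 and 63.1 CPM at 10 °C, and LOX4 was lower (-0.30 ± 0.13), although it was not called in 4 of 6 fits that left out a library (adjusted p up to 0.178, without replicate 2 at 10 °C). AOS varied more, at 76.8, 103 and 64.3 CPM at 0 °C and 9.97, 22.98 and 28.4 CPM at 10 °C, but its groups did not overlap.

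Salicylate and ethylene genes were mixed. Of 13 salicylate and defence genes, 7 were higher and 4 lower (5 and 4 in all 4 scalings). CBP60G, an activator of salicylate synthesis, was at 44.97, 43.3 and 40.99 CPM at 0 °C and 6.57, 6.21 and 7.57 CPM at 10 °C, yet ICS1, the enzyme it activates, was lower, at 1.49, 1.85 and 2.34 CPM at 0 °C and 6.17, 5.36 and 4.12 CPM at 10 °C. PBS3, which acts after ICS1, had no count in any library at 0 °C and was at 0, 1.48 and 0.636 CPM at 10 °C. Against the limit that 3 counts per library set, it was at least 5.68-fold lower at 0 °C, or 2.56-fold without replicate 2 at 10 °C. It was not called with the replicate block (adjusted p = 0.0693) or in 5 of 6 fits that left out a library, the highest adjusted p being 0.107 without replicate 2 at 10 °C. In ethylene synthesis and signalling 6 of 11 genes were higher and 3 lower, 3 and 3 in all 4 scalings. The synthases ACS6 (80.2, 79.3 and 88.8 CPM at 0 °C and 22.3, 23.3 and 23.2 CPM at 10 °C) and ACS7 (3.83, 1.97 and 3.796 CPM at 0 °C and 0.421, 0.713 and 0.46995 CPM at 10 °C) were higher, and the oxidase ACO1 (-0.78 ± 0.11) was lower. WRKY factors of stress and defence were higher for 9 of 12 members and lower for 1 (8 and 1 in all 4 scalings). WRKY18 was at 99.9, 106 and 96.9 CPM at 0 °C and 7.98, 8.51 and 8.76 CPM at 10 °C, WRKY40 at 21.7, 22.96 and 22.3 CPM at 0 °C and 4.36, 3.83 and 4.01 CPM at 10 °C, and WRKY53 was lower (-1.23 ± 0.32). Calmodulin-like and touch genes had 9 of 11 members higher and 2 lower in all 4 scalings. CML37, a calcium-binding protein, was at 42.3, 42.3 and 42.96 CPM at 0 °C and 0.719, 0.687 and 0.719 CPM at 10 °C, and CML38 at 39.4, 43.2 and 39.6 CPM at 0 °C and 2.26, 1.95 and 2.52 CPM at 10 °C.

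Cytokinin response regulators of type A were lower for 9 of 9 members, in all 4 scalings (median -1.93). Regulators of this type repress cytokinin signalling, and many of them, though not all to the same degree, are induced by cytokinin. ARR8 was at 0.341, 0.123 and 0 CPM at 0 °C and 16.9, 20.8 and 21.1 CPM at 10 °C, with a mean of 2.08 CPM at 4 °C and 21.9 CPM at 22 °C. Its log2 fold change was -6.97 ± 0.43 (adjusted p = 1.55e-08), and its 0 °C levels were at the detection limit. ARR7 was at 11.2, 12.3 and 11.1 CPM at 0 °C and 56.3, 60.2 and 60.9 CPM at 10 °C, ARR4 at 26.7, 26.8 and 25.5 CPM at 0 °C and 89.8, 85.99 and 82.1 CPM at 10 °C, and ARR15 at 0.852, 0.658 and 1.09 CPM at 0 °C and 6.15, 6.18 and 5.09 CPM at 10 °C. The smallest difference, that of ARR9, was -0.96 ± 0.092.

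Gibberellin genes of synthesis and of breakdown mostly had opposite directions, and other members of the list went both ways. The synthesis genes GA3OX1 (0.681, 0.658 and 1.33 CPM at 0 °C and 11.95, 10.7 and 10.6 CPM at 10 °C) and GA3OX2 (0.511, 0.658 and 0.646 CPM at 0 °C and 4.64, 5.07 and 4.53 CPM at 10 °C) were lower at 0 °C, as were GA20OX1 (-2.63 ± 0.17) and GA20OX2 (-2.35 ± 0.55). The breakdown genes GA2OX1 (15.2, 16.9 and 16.4 CPM at 0 °C and 2.55, 2.85 and 3.12 CPM at 10 °C), GA2OX2 (1.299 ± 0.15) and GA2OX6 (2.39 ± 0.075) were higher, and GA2OX8 was not called (-0.17 ± 0.22). The DELLA repressors differed among themselves. RGL3 was at 31.6, 32.8 and 30.4 CPM at 0 °C and 3.02, 2.99 and 2.599 CPM at 10 °C and RGA was at 0.41 ± 0.029 on the log2 scale, while GAI (-2.47 ± 0.092), RGL1 (-0.64 ± 0.13) and RGL2 (-1.95 ± 0.23) were lower. The difference of RGA was smaller in size than the median shift of -0.57 with total counts alone, so its direction may depend on the scaling. GASA6, a gibberellin-regulated gene, was higher in all 4 scalings, with a log2 fold change of 3.52. In all, 8 of 17 gibberellin genes were higher and 7 lower (7 and 7 in all 4 scalings). For brassinosteroids, 3 of 12 genes were higher and 7 lower, 1 and 7 in all 4 scalings. BEE3, a factor induced by this hormone, was at 0.298, 0.411 and 0.363 CPM at 0 °C and 5.504, 4.68 and 4.89 CPM at 10 °C, and the synthesis gene DWF4 was at 7.196, 7.94 and 7.23 CPM at 0 °C and 13.02, 14.1 and 15.3 CPM at 10 °C. Of 15 auxin response genes 6 were higher and 5 lower (5 and 5 in all 4 scalings), from SAUR15 at 0.298, 0.123 and 0.0808 CPM at 0 °C and 2.98, 2.56 and 2.82 CPM at 10 °C to IAA19 at 30.2, 33.3 and 30.6 CPM at 0 °C and 6.77, 7.001 and 6.61 CPM at 10 °C.

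Of 19 cell wall genes 8 were higher and 10 lower at 0 °C, 7 and 10 in all 4 scalings. All 8 α-expansins of the list, which loosen walls in growing cells, were lower at 0 °C, and the expansin-like genes EXLA1 and EXLA2 and the xyloglucan-modifying enzymes XTH18, XTH19, XTH22, XTH24 and XTH30 were higher, in all 4 scalings. The other two lower genes were of the latter kinds, the expansin-like EXLB1 (-1.24 ± 0.13) and XTH33 (-0.80 ± 0.22). EXPA1 was at 5.66, 4.53 and 5.17 CPM at 0 °C and 104, 104 and 100.3 CPM at 10 °C (log2 fold change -4.33 ± 0.06). EXPA5 was at 2.94, 0 and 0 CPM at 0 °C and 36.4, 45.9 and 42.2 CPM at 10 °C, with no count in 2 of the 3 libraries at 0 °C. EXLA1, in contrast, was at 384, 400.0 and 375 CPM at 0 °C and 3.12, 3.67 and 3.4003 CPM at 10 °C, a log2 fold change of 6.83 ± 0.063 (adjusted p = 7.86e-16). EXLA2 was at 182, 198 and 203 CPM at 0 °C and 7.56, 6.499 and 6.22 CPM at 10 °C, and XTH22, known as the touch gene TCH4, was at 379, 383 and 373 CPM at 0 °C and 19.1, 17.9 and 17.7 CPM at 10 °C. Its mean at 4 °C was below that at 10 °C, with 13.4 CPM at 4 °C and 49.8 CPM at 22 °C. Of 18 cell division genes 5 were higher and 5 lower, 1 and 5 in all 4 scalings. The mitotic cyclin CYCA1;1 was furthest apart, at 2.896, 3.04 and 3.07 CPM at 0 °C and 6.87, 7.03 and 7.63 CPM at 10 °C (-1.25 ± 0.085), and KNOLLE, a syntaxin of the cell plate, was higher (0.79 ± 0.054), both in all 4 scalings. The D-type cyclins that respond to cytokinin and sugar were lower, with CYCD3;1 at 6.94, 7.2001 and 7.43 CPM at 0 °C and 15.5, 15.1 and 14.5 CPM at 10 °C and CYCD3;3 at 4.81, 4.65 and 4.603 CPM at 0 °C and 9.27, 11.7 and 9.56 CPM at 10 °C. The B-type cyclins CYCB1;1 (0.045 ± 0.15) and CYCB1;2 (0.14 ± 0.077) were not called.

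Genes of ribosome biogenesis were lower for 11 of 20 members and higher for 5, 11 and 2 in all 4 scalings. NOP58, a nucleolar protein, was at 67.2, 67.6 and 64.8 CPM at 0 °C and 183, 198 and 191 CPM at 10 °C, and FIB1, a fibrillarin, at 160.5, 173 and 165 CPM at 0 °C and 339.6, 338 and 338 CPM at 10 °C. Both had lower means at 22 °C than at either cold temperature, 30.6 CPM for NOP58 and 102 CPM for FIB1. REIL2, a factor of late maturation of the large subunit that is needed for growth in the cold, was higher, at 143, 154 and 149 CPM at 0 °C and 59.8, 58.5 and 57.97 CPM at 10 °C. RNA chaperones were higher for 9 of 9 members, 6 of them in all 4 scalings. GRP7 (AT2G21660), a glycine-rich RNA-binding protein, was at 7481, 8330.2 and 7777 CPM at 0 °C and 1008, 969 and 951 CPM at 10 °C (log2 fold change 3.01 ± 0.054). CSP3, a cold shock domain protein, was at 97.4, 109 and 103 CPM at 0 °C and 43.1, 41.8 and 44.1 CPM at 10 °C, and the RNA helicase LOS4 differed by 0.093 ± 0.035 and was not called in 3 of 6 fits that left out a library (adjusted p up to 0.0850, without replicate 2 at 0 °C). SR splicing factors were higher for 11 of 17 members and lower for 1, but 4 and 0 in all 4 scalings. RS40 was the furthest apart, at 255, 270.4 and 262 CPM at 0 °C and 120.2, 119 and 116 CPM at 10 °C.

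Nuclear photosynthesis genes were higher at 0 °C for most members. Of 17 light-harvesting genes 14 were higher and 1 lower, 10 and 1 in all 4 scalings, and of 28 genes of the photosystem cores and electron transport 27 were higher and 1 lower, 23 and 1 in all 4 scalings. LHCB5 was at 6796, 7209 and 6579.7 CPM at 0 °C and 2219, 2159 and 2209 CPM at 10 °C, a log2 fold change of 1.64 ± 0.032. Its mean was 3954 CPM at 4 °C and 7103 CPM at 22 °C, so the level at 0 °C was near that at 22 °C and the 10 °C level was below both. LHCB1.4 was at 3041, 3373 and 3099 CPM at 0 °C and 637, 596 and 603 CPM at 10 °C, and LHCB1.2 at 5730.4, 6150.4 and 5928 CPM at 0 °C and 1952, 1864 and 1781 CPM at 10 °C. The LHCB1 genes are near-identical copies, and their split of reads is uncertain. PSBQ2, a subunit of the oxygen-evolving complex, was at 2261, 2413 and 2251 CPM at 0 °C and 587, 587 and 574 CPM at 10 °C, with a mean of 1456 CPM at 4 °C and 2059.9 CPM at 22 °C. LHCB4.3 was the light-harvesting gene that was lower (-0.17 ± 0.058), but it was not called in 3 of 6 fits that left out a library (adjusted p up to 0.103, without replicate 1 at 0 °C).

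Carbon fixation did not show this direction. Of 16 Calvin cycle genes 8 were higher and 6 lower, but 1 and 6 in all 4 scalings. The small subunits of Rubisco differed among themselves in estimated counts. RBCS1B (AT5G38430), RBCS2B (AT5G38420) and RBCS3B (AT5G38410) are neighbours by locus number, and the part of read assignment in their differences was not tested. RBCS1B was at 742, 790.0 and 749 CPM at 0 °C and 1785, 1774 and 1777 CPM at 10 °C, whereas RBCS3B was at 393, 419 and 408 CPM at 0 °C and 122, 115 and 128 CPM at 10 °C. RBCS2B was at 1888, 1947 and 1833 CPM at 0 °C and 1223, 1284 and 1296 CPM at 10 °C, and its call was lost with total counts alone (log2 fold change 0.0093, adjusted p = 0.800). FBA1, a chloroplast aldolase, was at 537, 571 and 572 CPM at 0 °C and 1314, 1237 and 1239 CPM at 10 °C. In chlorophyll synthesis 5 of 14 genes were higher and 6 lower, 0 and 4 in all 4 scalings. GUN4, which activates magnesium chelatase, was at 84.3, 85.9 and 87.2 CPM at 0 °C and 276, 272 and 261 CPM at 10 °C, and CAO, which makes chlorophyll b, was at 69.2, 69.04 and 67.7 CPM at 0 °C and 213, 218 and 217 CPM at 10 °C. Among 8 photoprotective genes 4 were higher and none lower, 2 and 0 in all 4 scalings. ELIP1, an early light-induced protein, was at 1957, 2170.2 and 1993 CPM at 0 °C and 744, 721 and 723 CPM at 10 °C. NPQ1, the de-epoxidase of the xanthophyll cycle, was at 229, 232 and 223 CPM at 0 °C and 60.6, 65.3 and 60.1 CPM at 10 °C. ELIP2 was high at both temperatures, at 1155, 1231 and 1139 CPM at 0 °C and 1093, 1059 and 1039.8 CPM at 10 °C (0.14 ± 0.043), and had a mean of 6.21 CPM at 22 °C; its direction reversed under upper quartile scaling (-0.069, adjusted p = 0.193) and with total counts alone (-0.42, adjusted p = 4.2e-07).

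Genes of specialised metabolism were lower at 0 °C. Glucosinolates are sulphur-rich defence compounds of the cabbage family, and 12 of 15 genes for them were lower and 1 higher, 12 and 0 in all 4 scalings (median -1.55). CYP79B2, which starts indole glucosinolate synthesis, was at 6.6003, 6.58 and 6.26 CPM at 0 °C and 89.4, 87.97 and 92.03 CPM at 10 °C (log2 fold change -3.79 ± 0.065). Its relative CYP79B3 was at 9.75, 10.5 and 10.98 CPM at 0 °C and 66.97, 66.8 and 68.9 CPM at 10 °C. CYP79F2, of the aliphatic branch, was at 7.03, 7.41 and 8.04 CPM at 0 °C and 81.3, 83.3 and 82.3 CPM at 10 °C, and MYB34, a factor that activates the indole branch, was at 2.299, 1.89 and 2.54 CPM at 0 °C and 27.5, 30.3 and 26.6 CPM at 10 °C. Flavonoid and anthocyanin genes were lower for 18 of 24 members and higher for 4 in all 4 scalings (median -1.20). MYB75 and MYB90 activate anthocyanin synthesis, and DFR is an enzyme of that branch. MYB75 was at 1.06, 1.65 and 1.01 CPM at 0 °C and 13.9, 14.6 and 13.4 CPM at 10 °C, with a mean of 4.395 CPM at 4 °C and 1.73 CPM at 22 °C. MYB90 was at 0.1703, 0.247 and 0.0404 CPM at 0 °C and 7.69, 7.32 and 8.85 CPM at 10 °C, and DFR was at 5.32, 4.402 and 6.42 CPM at 0 °C and 45.8, 52.04 and 48.3 CPM at 10 °C. DFR stood apart at 10 °C from the other 3 temperatures, whose means were between 2.93 and 5.38 CPM. The flavonol regulators MYB12 (20.3, 18.5 and 19.8 CPM at 0 °C and 2.26, 2.88 and 2.65 CPM at 10 °C) and MYB111 (28.999, 28.4 and 31.1 CPM at 0 °C and 3.297, 3.83 and 4.12 CPM at 10 °C) were higher at 0 °C, as were UGT78D2 (2.93 ± 0.029) and PAL2 (0.79 ± 0.048).

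Most clock genes were higher at 0 °C, 16 of 21 against 4 lower, 12 and 4 in all 4 scalings. None of the sources used here gives the hour of harvest. CCA1 (AT2G46830) and LHY (AT1G01060) are partner factors of the morning, and they had opposite directions. CCA1 was at 706, 674 and 695 CPM at 0 °C and 211, 207 and 206 CPM at 10 °C (log2 fold change 1.73 ± 0.039), and LHY was at 76.5, 84.1 and 73.98 CPM at 0 °C and 149, 149 and 150.0 CPM at 10 °C (-0.93 ± 0.072). The factors that repress them were mostly higher at 0 °C. PRR9 was at 284, 253 and 288 CPM at 0 °C and 50.6, 51.1 and 52.1 CPM at 10 °C, TOC1 at 157, 145 and 152 CPM at 0 °C and 65.2, 61.8 and 59.9 CPM at 10 °C, and PRR7 was lower, at 101, 85.6 and 85.4 CPM at 0 °C and 129, 135 and 123 CPM at 10 °C. GI, which acts in the clock and in flowering, was at 1116, 980.2 and 1120.4 CPM at 0 °C and 192, 185 and 191 CPM at 10 °C. RVE1 was at 156, 157 and 166 CPM at 0 °C and 12.6, 13.9 and 14.96 CPM at 10 °C, and BOA, an evening factor, at 7.71, 9.79 and 9.69 CPM at 0 °C and 1.07, 0.6605 and 0.719 CPM at 10 °C. RVE8 varied between libraries, at 0.383, 1.28 and 0 CPM at 0 °C and 5.28, 3.09 and 5.03 CPM at 10 °C. Components of the evening complex, ELF3 (1.08 ± 0.055), ELF4 (1.99 ± 0.059) and LUX (0.86 ± 0.044), were higher together.

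Light-regulated B-box and PIF factors were higher for 9 of 14 members and lower for 5, 8 and 5 in all 4 scalings. BBX15 (AT1G25440) was at 6.86, 5.596 and 5.33 CPM at 0 °C and 222, 215 and 219 CPM at 10 °C, a log2 fold change of -5.21 ± 0.061, with a mean of 114 CPM at 4 °C and 248 CPM at 22 °C. BBX25, a repressor of light signalling, was at 768, 810.4 and 752 CPM at 0 °C and 74.998, 77.9 and 74.9 CPM at 10 °C, and BBX30 at 27.1, 29.6 and 27.8 CPM at 0 °C and 1.04, 0.951 and 0.746 CPM at 10 °C. Among flowering genes 5 of 13 were higher and 6 lower in all 4 scalings. VIN3 (AT5G57380), which accumulates in long cold and represses FLC during vernalization, was at 8.56, 7.49 and 7.95 CPM at 0 °C and 0.0744, 0.0793 and 0 CPM at 10 °C. Its mean at 4 °C was 1.42 CPM. FLC, the floral repressor, was at 5.83, 6.38 and 6.38 CPM at 0 °C and 1.76, 2.01 and 1.47 CPM at 10 °C. FT, the mobile flowering signal, was at 1.36, 1.19 and 1.53 CPM at 0 °C and 12.4, 13.8 and 15.04 CPM at 10 °C, and was low at 4 and 22 °C as well, with 2.14 CPM at 4 °C and 1.303 CPM at 22 °C. SOC1, which acts after FT, was higher, at 308, 318 and 299.8 CPM at 0 °C and 45.1, 50.6 and 49.1 CPM at 10 °C, and CO, which activates FT, was at 4.47, 3.99 and 4.36 CPM at 0 °C and 0.818, 0.502 and 0.332 CPM at 10 °C.

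Membrane and surface genes were mixed. Of 18 lipid genes 11 were higher and 4 lower, 6 and 4 in all 4 scalings. ADS2, a desaturase needed for cold tolerance, was at 2119.5, 2115 and 2122 CPM at 0 °C and 354, 351 and 352 CPM at 10 °C. DGD1, which makes a galactolipid of chloroplast membranes, was at 372, 355 and 365 CPM at 0 °C and 69.97, 67.98 and 72.3 CPM at 10 °C, and DGAT1, which makes storage triacylglycerol, was at 315, 306 and 313 CPM at 0 °C and 44.999, 41.98 and 45.01 CPM at 10 °C. FAD8, a chloroplast desaturase, was lower (-0.64 ± 0.046). Of 11 wax genes 3 were higher and 6 lower, 1 and 6 in all 4 scalings. CER6, which elongates wax precursors, was at 42.3, 43.1 and 41.8 CPM at 0 °C and 118, 116 and 126 CPM at 10 °C, while MYB96, an activator of wax synthesis, was at 22.4, 21.2 and 23.62 CPM at 0 °C and 7.49, 6.23 and 7.13 CPM at 10 °C. Aquaporins were higher for 11 of 19 members and lower for 5, 7 and 5 in all 4 scalings. PIP2;6 was at 916, 962 and 952 CPM at 0 °C and 149.9, 147 and 145 CPM at 10 °C, and PIP2;3 at 10.2, 10.4 and 11.8 CPM at 0 °C and 39.5, 35.03 and 37.3 CPM at 10 °C.

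Of 14 iron genes 9 were lower and 1 higher in all 4 scalings, and of 7 nitrate genes 3 were higher and 4 lower (2 and 4 in all 4 scalings). NRT2.1, a nitrate transporter, was at 2.299, 3.33 and 3.31 CPM at 0 °C and 40.4, 37.6 and 38.1 CPM at 10 °C, and the nitrate transceptor NPF6.3 was at 93.7, 86.2 and 91.5 CPM at 0 °C and 392, 378 and 398 CPM at 10 °C. IRT1, the iron transporter of the root epidermis, was at 3.75, 3.703 and 2.22 CPM at 0 °C and 28.8, 32.3 and 32.5 CPM at 10 °C. FER3, a ferritin that stores iron, was the higher gene of the iron list, at 337, 359 and 343 CPM at 0 °C and 126, 128 and 128 CPM at 10 °C. Of 13 root markers, 8 were lower and 2 higher (8 and 1 in all 4 scalings), and their summed level was 138 to 149 CPM at 0 °C and 172 to 179 CPM at 10 °C. The root-hair expansin EXPA18 was at 1.11, 1.605 and 1.57 CPM at 0 °C and 10.7, 10.7 and 9.76 CPM at 10 °C, whereas CASP5, of the Casparian strip in the endodermis, was higher, at 0.766, 1.19 and 1.17 CPM at 0 °C and 0.298, 0.238 and 0.276 CPM at 10 °C (log2 fold change 1.93 ± 0.44). The part of root share in these results was not tested. In whole plantlets, fewer cells of a type and less RNA per cell cannot be told apart.

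Markers of other organs and cell types were at low summed levels or differed little in sum. Guard cell markers summed to 49.4 to 52.9 CPM at 0 °C and 53.8 to 55.6 CPM at 10 °C, and vascular markers to 275 to 281 and 277 to 285 CPM. Floral markers summed to 6.82 to 7.11 CPM at 0 °C and 5.31 to 6.10 CPM at 10 °C. Pollen genes summed to 1.25 to 1.73 and 0.502 to 0.818 CPM, and seed storage genes to 2.75 to 2.94 and 2.07 to 3.36 CPM. Sums of floral, pollen and guard cell markers did not overlap between the temperatures. CRU2 among the seed genes and PME48 among the pollen genes had no count in any of the 6 libraries. Of 6 floral markers tested 3 were higher and 1 lower (1 and 1 in all 4 scalings). For 8 guard cell markers these counts were 1 and 3 (1 and 2), and for 8 vascular markers 4 and 2 (0 and 2). Of 13 genes used as references in expression studies, 7 were higher and 3 lower, 4 and 3 in all 4 scalings. ACT2 (-0.025 ± 0.025) and TUB2 (-0.068 ± 0.029) were not called, UBC9 was at 251, 254 and 246 CPM at 0 °C and 116, 118 and 116 CPM at 10 °C, and GAPC2 at 744, 788 and 745 CPM at 0 °C and 1499, 1545 and 1565 CPM at 10 °C.

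The largest rises and falls included genes outside these groups. AT1G71000, annotated by RefSeq as a chaperone with a DnaJ domain, was at 155, 157 and 151 CPM at 0 °C and 0.421, 0.6605 and 0.719 CPM at 10 °C. AT5G05220, whose product is uncharacterised, was at 83.4, 82.5 and 82.6 CPM at 0 °C and 0.298, 0.423 and 0.276 CPM at 10 °C. AT4G35655, of the RIN4 family, was at 17.37, 17.2 and 15.3 CPM at 0 °C and 0, 0.0793 and 0.0276 CPM at 10 °C. AT4G35655 was thus near the detection limit at 10 °C, and the other two were low there. The means at 4 °C of AT1G71000 and AT5G05220 were 4.82 CPM at 4 °C and 0.0917 CPM at 22 °C and 4.84 CPM at 4 °C and 0.0848 CPM at 22 °C, respectively. NAP5, an ABC protein, had no count at 10 °C and was at least 122-fold higher at 0 °C against a limit of 3 counts per library. AT4G17140, a protein with a pleckstrin homology domain, was at least 73.4-fold higher by the same limit, but its 3 libraries at 0 °C ranged from 2.38 to 8.23 CPM. AT2G33090, AT3G49980, AT5G48270 and AT3G15440, which completed the 10 largest rises with VIN3, had 10 °C means below 0.1 CPM. On the other side, AT1G20430, an uncharacterised gene annotated next to COR47 on the same strand, had no count at 0 or 4 °C and was at 13.1, 12.3 and 13.04 CPM at 10 °C. Against 3 counts per library it was at least 103-fold lower at 0 °C. COR47 had the opposite order, with a mean of 170.4 CPM at 4 °C and 4.45 CPM at 22 °C, and whether reads of these neighbours were assigned differently between libraries was not tested. LBD4, a factor of the LOB family, was at 0.426, 0.329 and 0.242 CPM at 0 °C and 14.03, 11.4 and 13.6 CPM at 10 °C. ACD6, an ankyrin protein of defence, was at 0.341, 0.206 and 0.525 CPM at 0 °C and 11.2, 13.7 and 14.96 CPM at 10 °C, and bHLH071 was at 0.213, 0.0823 and 0.0808 CPM at 0 °C and 6.15, 6.53 and 5.83 CPM at 10 °C. AT5G65980, of the auxin efflux carrier family, was at 0, 0 and 0.242 CPM at 0 °C and 7.17, 4.703 and 6.77 CPM at 10 °C. AT4G31210, a topoisomerase, was at 0.341, 0.0411 and 0.202 CPM at 0 °C and 13.5, 7.71 and 3.07 CPM at 10 °C and was not called without replicate 2 at 0 °C (adjusted p = 0.0537). The remaining falls among the 10 largest were ARR8, MYB90, EXPA5 and BBX15.

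The levels at 4 °C mostly lay between those at 0 and 10 °C. Of the 2774 genes at least 2-fold higher at 0 °C, the 4 °C mean lay between the other 2 for 83.5%, and of the 3131 genes at least 2-fold lower it did so for 80.9%. Over all tested genes the share was 53.3%. For all genes called higher and all called lower at 0 °C, it was 67.2% and 66.8%. Genes chosen for a wide gap between 0 and 10 °C leave more room for another mean to fall inside it. The larger shares between, here and for 22 °C below, may therefore follow from the choice of genes alone, which was not tested. The 22 °C mean was placed differently. For the genes at least 2-fold higher at 0 °C it was below both cold levels for 47.8%, between them for 41.7% and above both for 10.5%. For the genes at least 2-fold lower at 0 °C it was above both for 42.9%, between them for 49.2% and below both for 7.92%. Over all tested genes it was below both for 33.2%, between them for 29.7% and above both for 37.1%. CBF2, RD29A and ADH1 belong to the first kind, with 22 °C lowest, while the glucosinolate gene MYB34 was at 26.6 to 30.3 CPM at 10 °C and had a mean of 32.3 CPM at 22 °C.

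Promoter motifs were counted in the 250 bases before the gene start for 20782 of the 21293 tested genes, on both strands. The CRT/DRE core (CCGAC) occurred in 12.8% of all these promoters, in 20.1% of genes at least 2-fold higher at 0 °C and in 30.9% of those at least 8-fold higher. In genes at least 2-fold and 8-fold lower the shares were 9.38% and 7.91%. The ABRE core (ACGTG) occurred in 24.1% of all promoters, in 32.5% and 37.2% of the 2-fold and 8-fold higher genes, and in 23.3% and 25.0% of the lower ones. The evening element (AAAATATCT) occurred in 2.53% of all, in 5.71% and 8.46% of the higher and in 1.54% and 0.633% of the lower genes. The CG element bound by CAMTA factors (CGCGT) occurred in 7.40% of all, in 12.8% and 16.1% of the higher and in 4.97% and 6.01% of the lower genes. The heat shock element of 2 units (GAANNTTC) differed less, with 9.29% of all and 10.8% and 12.9% of the higher genes. The W-box core (TTGAC), bound by WRKY factors, was found in 45.2% of all and in 47.2% and 45.9% of the higher genes. The G-box (CACGTG), which contains the ABRE core, occurred in 7.37% of all, in 11.7% and 15% of the higher and in 5.66% and 5.70% of the lower genes. The site II element (TGGGCC) was less frequent in both directions, with 3319 of all 20782 promoters (16%), 280 of 2695 and 49 of 473 of the higher genes, and 309 of 3059 and 24 of 316 of the lower ones. The telo-box (AAACCCTA) occurred in 3.54% of all, in 2.49% and 3.59% of the higher and in 3.17% and 0.949% of the lower genes. Of the COR and LEA genes, 8 of 18 (44.4%) held a CRT/DRE core and 10 of 18 (55.6%) an ABRE core. None of the 4 tested CBF/DREB1 genes held a CRT/DRE core in this window. These shares are descriptions with no test, and they do not say which factor binds.

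**Figure D4:**
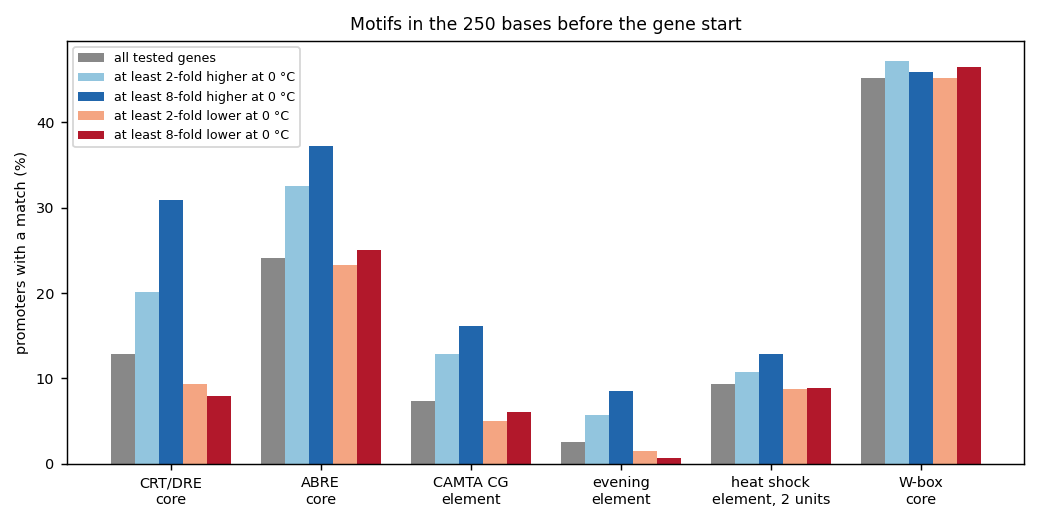
Bars give the share of promoters (vertical axis, %) with at least 1 match to a motif in the 250 bases before the gene start, for all tested genes (grey), genes at least 2-fold or 8-fold higher at 0 °C (light and dark blue) and genes at least 2-fold or 8-fold lower (light and dark red). The CRT/DRE core goes from 12.8% of all promoters to 30.9% of the 8-fold higher genes, while the W-box core stays between 45.2% and 47.2%.

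The share of a gene's reads on its different transcripts was compared for 4532 genes with at least 2 tested transcripts. It differed between 0 and 10 °C for 713 (15.7%), and 119 of these were not called for their summed level. In 107 of the 713 the leading transcript was another at 0 °C than at 10 °C, and over all 4532 tested genes in 375. Estimated counts divide reads between overlapping transcripts by a model, so such shares are less certain than gene levels. HEME1 (AT3G14930), a uroporphyrinogen decarboxylase of tetrapyrrole synthesis, was among the 5 smallest p-values. Its transcript AT3G14930.1 made up 65.5%, 68.6% and 66.9% at 0 °C and 33.9%, 31.9% and 33.1% at 10 °C (adjusted p = 2.09e-12). The share was 55.2% at 4 °C and 69.0% at 22 °C, so the 10 °C libraries were the lowest. CAT2, a leaf catalase, gave 5.61% ± 0.506 of its counts to transcript AT4G35090.2 at 0 °C and 0.853% ± 0.0163 at 10 °C (SD, n = 3, adjusted p = 3.92e-15). LHCA3, LHCA1 and LHCB4.2 completed the 5, and their minor transcripts held under 2% of the counts in these 6 libraries.

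Of 4 clock genes chosen for the comparison of transcript usage, LHY differed clearly. It had a share of 46.4% ± 6.80 on transcript AT1G01060.2 at 0 °C and 12.7% ± 1.52 at 10 °C, against 6.10% at 22 °C (SD, n = 3, adjusted p = 4.8e-05). PRR9 was near the threshold (adjusted p = 0.0479), with 35.5% ± 1.03 on transcript AT2G46790.2 at 0 °C and 28.8% ± 2.25 at 10 °C. CCA1 (adjusted p = 0.736) and GRP7 (adjusted p = 0.888) were not called, and PRR7 had a single tested transcript. KAT5, FLC and TPPI, chosen after their values were seen, changed their leading transcript. For KAT5, a thiolase, AT5G48880.2 made up 92.03%, 82.8% and 87.5% at 0 °C and 31.5%, 27.5% and 30.1% at 10 °C. Its mean share was 32.9% at 4 °C, near that at 10 °C, and 85.8% at 22 °C. For FLC, AT5G10140.2 made up 53.4%, 59.0% and 66.5% at 0 °C and was at 0 in the 3 libraries at 10 °C, where the gene's level was low. For TPPI, a trehalose-phosphate phosphatase, AT5G10100.1 held 74.9%, 80.3% and 80.8% at 0 °C and 40.3%, 25.4% and 18.8% at 10 °C.

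**Figure D5:**
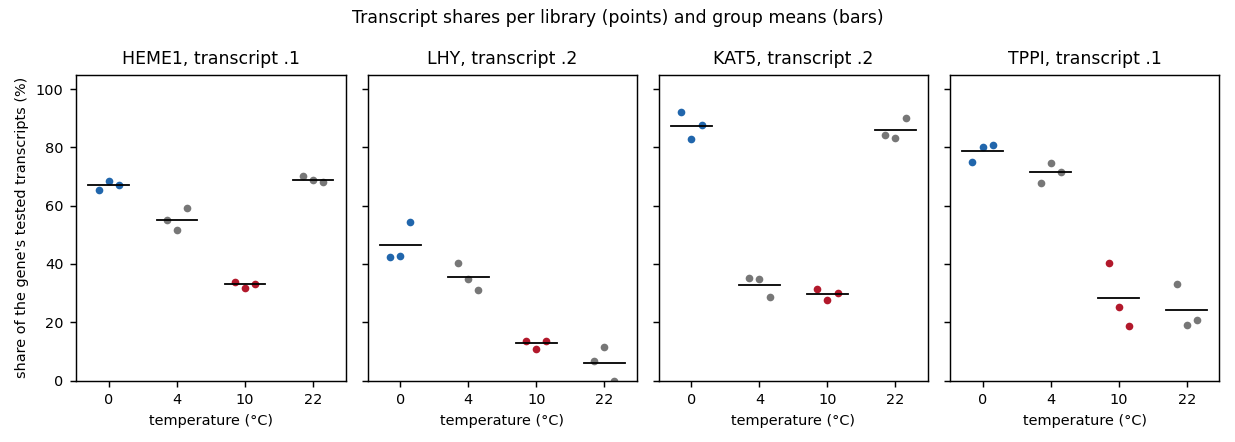
Each panel shows the share of 1 transcript in its gene's tested transcripts (vertical axis, %) by temperature, with points for the 3 libraries and bars for group means. The HEME1 and KAT5 transcripts are low at 10 °C and high at 0 and 22 °C. At 4 °C the KAT5 transcript is low as well (32.9%) and the HEME1 transcript is at 55.2%. The LHY transcript is high at 0 °C (46.4%) and low at 10 and 22 °C.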

How the data were processed

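Per the labels' protocols, libraries from whole-plantlet total RNA gave paired-end reads 250 bp long. Estimated counts per transcript (not always whole numbers) and CPM (counts per 1000000) of the same transcripts were deposited by the authors as tables. The deposited CPM equal the counts divided by each column's total, to within 5.46e-11, and were not used further. The submitters' processing notes list HISAT2 2.2.0, kallisto 0.42.4, edgeR and the TAIR10 build; the sources used here do not say which step each did or whether counting used strand, so antisense partners and near-identical copies are uncertain. Each table has 6 columns that match no sample and were not used. Of 56132 transcripts, 41623 belong to 33560 annotated loci and 14509 to assembled loci, which held 9.79% to 12.2% of the counts in the 6 libraries.

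For each annotated locus the counts of its transcripts were added up and rounded. Genes past filterByExpr were tested with the quasi-likelihood test of edgeR 4.0.16 in R 4.3.3 (glmQLFit, glmQLFTest), fitted to all 12 libraries with a mean for each temperature (common biological coefficient of variation 0.1) and the contrast 0 minus 10 °C. Benjamini-Hochberg adjustment of the p-values ran over all 21293 genes. Standard errors are approximate and were taken as |log2 fold change| over the square root of F. Transcript usage was tested with diffSpliceDGE. Limits for genes without counts are 3 counts per library and cover counting error only. Replicates of 1 temperature differed beyond sampling noise. The chain was tested on simulated data with known changes in a small part of the genes. The simulation did not include the difference in RNA composition seen here, so it does not bear on the choice of scaling.

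The comparison, the gene lists and the tests were chosen with earlier results of these data known. Named genes are the 10 largest rises and falls among called genes with at least 5 CPM in the higher group and no overlap, in each list up to 4 members with the largest absolute change, the genes TOC1, LHY, CCA1, GOLS3, RD29A, COR15A and CBF1 to CBF3, and, for usage, the 5 smallest p-values and CCA1, LHY, PRR7, PRR9 and GRP7. Other list members named, and the 4 promoters printed, were chosen after their values were seen. Promoters were read from the RefSeq TAIR10.1 genome and annotation; no coordinates of the deposited files were used. Alternatives covered scaling, filters, DESeq2 1.42.0, the 6 libraries alone, assembled loci, the replicate number and leaving out each library.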

Additional observations from a re-analysis of the deposited data

How the results depend on the processing

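The count of 15023 genes called lay between 11395 (mean of at least 5 CPM) and 18043 (assembled loci added) over the alternatives, 14565 with DESeq2 and 14290 to 14463 when 1 library was left out. With total counts alone 3430 genes were higher and 13805 lower at 0 °C, and 1569 and 6655 were so by at least 2-fold. When a mean of 5 CPM or more was required, 3399 differed at least 2-fold, 1800 higher and 1599 lower; fewer genes are tested there. Transcript usage was called for 299 genes with the Simes p in place of the F test and for 482 to 619 when 1 library was left out. Of the 15023 genes called, 1620 were called in the opposite direction with total counts alone and 49 under upper quartile scaling. Among the genes named by the rules above, called or not, total counts alone reversed CHLD (-0.012), PGR5 (-0.27), ELIP2 (-0.42), SEP3 (-0.00073), XCP1 (-0.015), SEOR1 (-0.20) and IRX1 (-0.28). Upper quartile scaling reversed ELIP2 (-0.069). The scaling shifts all genes the same way, so other genes with small differences can reverse too. The levels showed no sign of pairing by replicate number. The correlations of same-numbered deviations across genes were -0.049, 0.014 and -0.028, and the samples did not all correlate best with their own number. Such correlations cannot show whether same-numbered samples were handled together. With the replicate block 14868 genes were called (7169 higher, 7699 lower), 5877 at least 2-fold, and 584 for usage; the calls of PBS3 (adjusted p = 0.0693) and AP1 (adjusted p = 0.0510) were lost, and no other named gene's call changed. Genes below about 1 CPM rest on few counts at this depth, and nothing here separates temperature from a possible difference in duration.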

Other observations

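Genes of the organelle genomes and assembled loci fall outside the groups described above. Of 110 chloroplast-encoded genes tested, 47 were higher and 6 lower at 0 °C, with a median log2 fold change of 0.46. With total counts alone 16 were higher and 29 lower (median -0.10), so their direction depends on the scaling. Chloroplast-encoded genes held 0.740% to 0.8998% of a library's counts at 0 °C and 0.782% to 1.13% at 10 °C, the highest value being that of replicate 2. Of 41 mitochondrial genes, 12 were higher and 13 lower (median -0.25), and 6 and 26 with total counts alone (median -0.80). These transcripts mostly lack poly(A) tails, and their levels also depend on how the RNA was selected, whose part was not tested.

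Of 7258 assembled loci, which the files do not tie to annotated genes, 2029 were higher and 1371 lower at 0 °C, with a median log2 fold change of 0.11. Upper quartile factors gave 1773 higher and 1651 lower (median -0.036) and total counts alone 1204 and 2548 (median -0.44), so the majority direction depends on the scaling. These scalings of organelle genes and assembled loci were chosen after the data were seen. The assembled loci held 11.97% to 12.2% of the counts at 0 °C and 9.79% to 10.2% at 10 °C.

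A pair of genes with a changed leading transcript was chosen after the values were seen. For MC3, a metacaspase, AT5G64240.1 held all of the tested counts in the 3 libraries at 0 °C, 62.4% on average at 4 °C, 28.7%, 18.04% and 13.2% at 10 °C and 5.33% at 22 °C, while the gene had a log2 fold change of -0.50 (adjusted p = 0.0159). AT5G64250, its neighbour by locus number, also changed, with AT5G64250.1 at 78.2%, 81.1% and 77.7% at 0 °C and 5.30%, 7.40% and 11.3% at 10 °C, and a log2 fold change of 2.06. Whether this pair overlaps was not examined, and the part of read assignment in these changes was not tested. Without strand information, reads of neighbours that do overlap cannot be told apart.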
